A study of Homo sapiens with 6 samples.

Results

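The mRNAs of 9 complement components and regulators were followed in A549 cells, an established human lung adenocarcinoma line, upon deletion of the microRNA gene MIR21. The genes were CFI, CFB, C3, C5, C1R, C1S, CD46, CD55 and CD59, all 9 of which were found by symbol among the 58174 genes listed. They were selected by name from this pathway, with results of the same comparison already known, and CFI was taken because it rose. Its values are thus given as a description without a test. Parental A549 cells (Ctrl) were compared with A549 cells carrying a CRISPR/Cas9 deletion of the MIR21 locus (MIR21-KO), with 3 libraries per group. In both groups cells were grown in DMEM with serum and harvested 48 h upon seeding, and polyA RNA was sequenced. MIR21-KO lines were grown from single cells sorted for Cas9 and guide RNA plasmids, whereas Ctrl refers to the parental line. How many clones were used is not given, so effects of the deletion and of cloning cannot be told apart. In bulk RNA, a change in the share of cells expressing a gene and a change in its RNA per cell cannot be told apart either.

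Complement is a cascade of plasma and cell surface proteins that marks targets for uptake or lyses them. The classical pathway uses the proteases C1r and C1s at an early step, and the alternative pathway uses factor B. Both pathways cleave C3 and then C5, which opens the way to the membrane attack complex. Host cells are protected by the membrane proteins CD46, CD55 and CD59, and by factor I, a plasma protease that inactivates C3b and C4b together with cofactors. Most complement proteins in blood come from the liver, but lung epithelial cells and A549 cells are known to synthesize several of them.

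The deleted microRNA and its possible matches were considered first, because they define what the comparison removed. Mature miR-21-5p (RefSeq, GRCh38.p14) lies on chromosome 17 from 59841273 to 59841294 on the plus strand, and is shown with its seed, bases 2 to 8, in capitals. Below it are the 22-base windows around the seed-matching hexamer TAAGCT in CD46 and around the one that occurs at 2 places in CD59, with the hexamer in capitals.
hsa-miR-21-5p: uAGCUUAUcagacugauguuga
CD46: ttcaagaaaattTAAGCTgcaa
CD59: cctcacgctgggTAAGCTtaag
None of the 9 genes held the heptamer match ATAAGCT in any annotated 3′ UTR of GENCODE 29, a word found in the longest 3′ UTR of 9.16% of 19309 protein-coding genes. The hexamer was found in 2 of the 9 genes, 1 time in CD46 and 5 times in the 7116-base longest 3′ UTR of CD59, and in 25.8% of all genes. It was present in 9 of the 11 CD46 transcripts with an annotated 3′ UTR, but in only 1 of the 10 of CD59. These are matches of letters only. The gene length deposited for CD59 was 4942 bases against 10358 exonic bases in GENCODE 29, so part of that 3′ UTR may lie outside the gene model used for counting. MIR21 itself was listed at 0 in all 6 libraries, which checks nothing about the deletion, since polyA libraries do not capture the processed microRNA.

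The values are FPKM, fragments scaled to gene length in kilobases and to library size, and the reads behind them could be recovered. These recovered reads, which are only those assigned to listed genes, summed to 10631667 to 14345209 per library. Fold changes and false discovery rates (FDRs) come from limma across the 16006 genes that averaged 0.5 FPKM or more, on log2(FPKM + 0.1), MIR21-KO over Ctrl, with calls at an FDR under 0.01. All 6 epithelial markers examined averaged 0.5 FPKM or more, and the list summed to 1680 to 1810 FPKM in Ctrl and 1220 to 1740 FPKM in MIR21-KO. CDH1, the epithelial cadherin, fell from 7.63 to 8.79 FPKM in Ctrl to 2.72 to 3.02 FPKM in MIR21-KO. KRT18 fell from 644 to 688 FPKM in Ctrl to 335 to 499 FPKM in MIR21-KO. KRT7 and KRT19 overlapped between the groups, with higher values in MIR21-KO replicates 1 and 2 than in any Ctrl library. KRT8 and EPCAM overlapped as well. Of the 6 epithelial markers 1 was called lower and 0 higher, so CDH1 and KRT18 were not both called. Over all genes tested 8.38% were called lower and 7.66% higher. Of 6 alveolar type II markers SFTPA1 and NKX2-1 were listed at 0 throughout, and the list summed to 4.84 to 5.58 FPKM in Ctrl and 6.64 to 7.42 FPKM in MIR21-KO, nearly all from ABCA3 (4.72 to 5.43 and 6.52 to 7.29 FPKM). Of 6 hepatocyte markers, ALB had at most 0.0435 FPKM in any library, but HNF4A, a transcription factor of liver and gut epithelium, fell from 3.78 to 4.65 FPKM in Ctrl to 0.390 to 0.522 FPKM in MIR21-KO. Hence the summed hepatocyte list went from 4.49 to 5.21 down to 0.692 to 0.911 FPKM. The leukocyte list summed to 3.35 to 3.81 FPKM in Ctrl and reached 3.49 to 5.60 FPKM in MIR21-KO, nearly all from CD14 (3.25, 3.80 and 3.33 FPKM in Ctrl, 5.10, 4.63 and 3.19 FPKM in MIR21-KO), with CD3E at 0 throughout. The part of these lists in the values below was not tested. MIR21-KO libraries differed more from each other than Ctrl libraries did, with a chi-square per degree of freedom of 5.29 to 20.8 against 2.21 to 3.82, and replicates 1 and 3 of MIR21-KO were the farthest apart.

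In Ctrl cells, C3 mRNA was the most abundant of the 9, and CFB mRNA was close to absent. In descending order of FPKM, the Ctrl means were highest for C3, CD59, CD46, C1S, C1R, CD55 and C5, followed by CFI and CFB, and no gene overlapped its neighbor in this order. In MIR21-KO cells the order was CD59, C1S, C3, C1R, CD46, CFI, CD55, C5 and CFB. Here the values of C1S overlapped those of C3, and those of C3 overlapped those of C1R. The 9 mRNAs summed to 165.1 ± 3.72 FPKM (SD, n = 3) in Ctrl and to 289.1 ± 17.8 FPKM in MIR21-KO. C3 made up 31.8% of this sum in Ctrl and 19.1% in MIR21-KO.

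**Figure D1:**
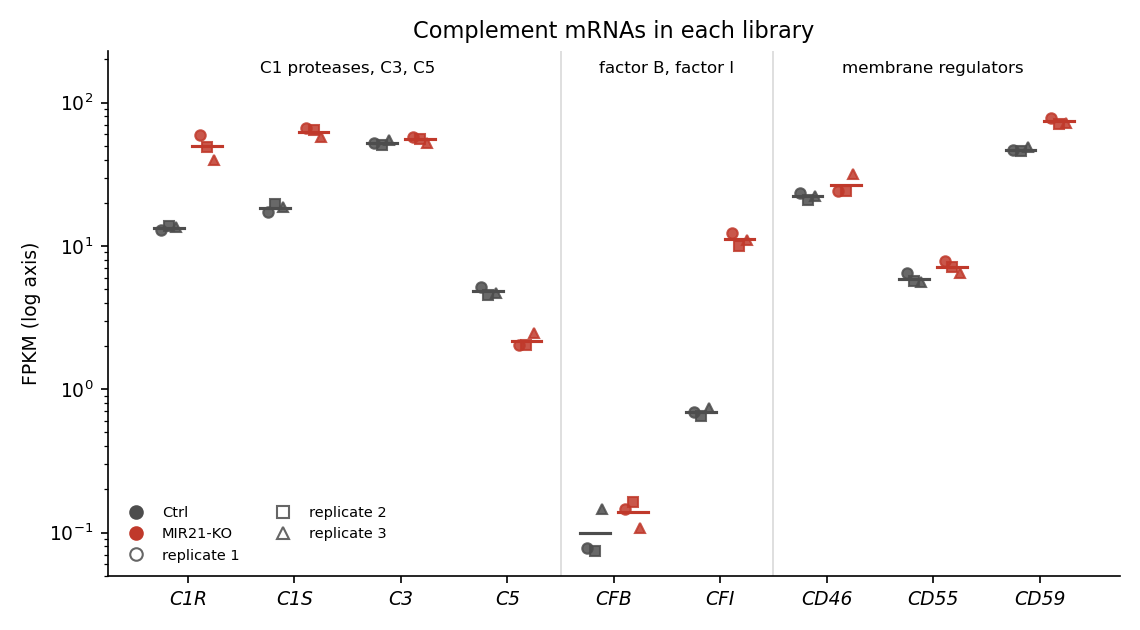
FPKM of the 9 complement mRNAs on a log axis in 3 Ctrl (grey) and 3 MIR21-KO (red) libraries, with marker shapes for replicates and bars for group means. CFI, C1R, C1S and CD59 sit higher and C5 sits lower in MIR21-KO libraries, while C3 and CFB overlap between the groups. CD46 and CD55 also sit higher in MIR21-KO libraries, but their groups are only narrowly apart and neither was called.

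Apart from CFI, 7 of the 8 genes were tested and 4 were called, with C1R, C1S and CD59 higher and C5 lower in MIR21-KO cells. C3, CD46 and CD55 were not called, and CFB was below the minimum level. Over all genes tested 16.0% were called, 7.66% higher and 8.38% lower. The median log2 fold change of the 7 was 0.28, against -0.02 over all genes tested. Ctrl and MIR21-KO libraries were fully separated for 6 of the 7 genes, as they were for 48.1% of all genes tested. Because the genes were chosen with results in view, these counts only describe the list.

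C1R and C1S encode the paired serine proteases of the C1 complex, in which C1r activates C1s and C1s then cleaves C4 and C2. C1S (ENSG00000182326, chromosome 12, 6988259 to 7071032, plus strand of GRCh38) had 17.1, 19.7 and 18.6 FPKM in Ctrl replicates 1 to 3, and 66.3, 64.8 and 57.3 FPKM in MIR21-KO replicates 1 to 3. The lowest MIR21-KO library was thus well above the highest Ctrl library. On the log2 scale it rose by 1.76 ± 0.0905 (SE, FDR = 7.9e-05, limma), with a 95% interval of 1.54 to 1.97. C1R (ENSG00000159403, chromosome 12, 7080199 to 7092607, minus strand) was at 12.8, 13.7 and 13.6 FPKM in Ctrl and at 59.8, 48.9 and 40.1 FPKM in MIR21-KO. The groups were again apart, but the MIR21-KO libraries spread by 19.9% (coefficient of variation) and the Ctrl libraries by 3.67%. C1R rose by 1.86 ± 0.143 on the log2 scale (95% interval 1.52 to 2.20, FDR = 0.000315, limma).

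The C1R and C1S genes lie tail to tail, 9166 bases apart, and their mRNAs rose to a similar degree. The ratio of C1R to C1S FPKM was 0.750, 0.697 and 0.729 in Ctrl libraries and 0.902, 0.755 and 0.700 in MIR21-KO libraries. These values overlapped, with means of 0.726 ± 0.0264 and 0.785 ± 0.104 (SD, n = 3 per group, exact permutation p = 0.4, two-sided, adjusted p = 0.4 over 4 ratios and sums compared in this way). The smallest value this exact permutation test can give with 3 libraries per group is p = 0.1. MIR21-KO replicate 1 had the highest ratio. Both genes share exonic sequence with neighbors on the same strand: C1R shares 672 bases (11.4% of its exons) with C1RL, which went from 6.42 to 15.3 FPKM, and C1S shares 229 bases (3.54%) with EMG1. How reads in shared exons were assigned is not given in the sources used here.

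**Figure D2:**
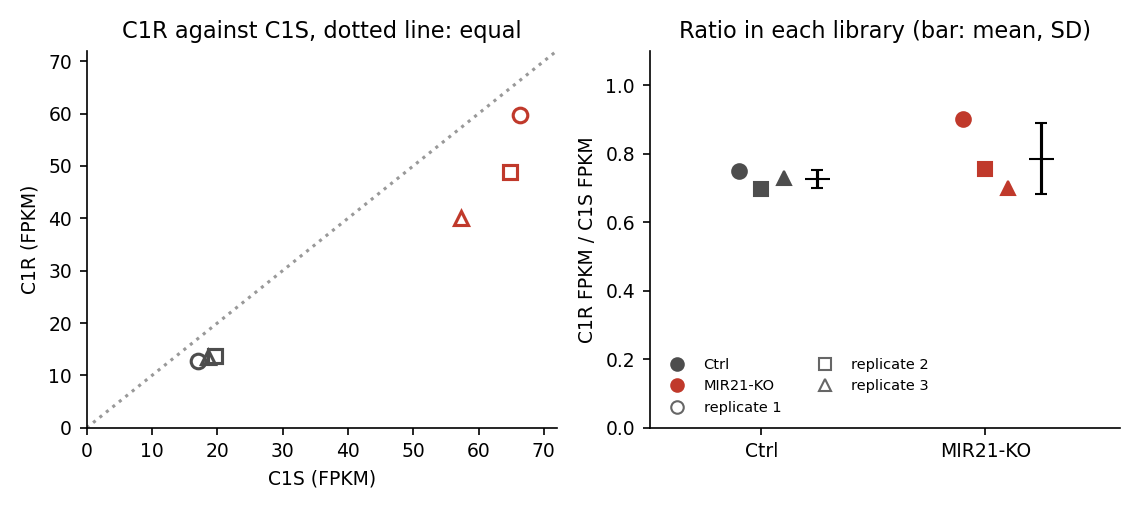
Left, FPKM of C1R against C1S in each of the 6 libraries, where the dotted line marks equal values. Right, their ratio per library with the group mean and SD (n = 3); the ratios overlap between groups although both mRNAs lie higher in MIR21-KO libraries.

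C3 is the central component from which C3b is released to coat surfaces, and it was the one abundant member whose groups overlapped. C3 (ENSG00000125730, chromosome 19, 6677704 to 6730562, minus strand) had 52.5, 50.3 and 54.7 FPKM in Ctrl and 57.8, 55.8 and 52.2 FPKM in MIR21-KO. These values rested on 4508 to 6557 reads per library. Its log2 fold change was 0.07 ± 0.0753 (SE, FDR = 0.499, limma), and the 95% interval of -0.11 to 0.25 shows how large a change these libraries leave possible.

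C5 is cleaved into the inflammatory fragment C5a and into C5b, on which the membrane attack complex assembles, and it was the only one of the 7 tested genes that was called lower. C5 (ENSG00000106804, chromosome 9, 120952335 to 121050276, minus strand) fell from 5.19, 4.57 and 4.71 FPKM in Ctrl to 2.02, 2.04 and 2.48 FPKM in MIR21-KO. All Ctrl libraries were above all MIR21-KO libraries, with 321 to 432 reads in Ctrl and 163 to 210 reads in MIR21-KO. The log2 fold change was -1.12 ± 0.124 (SE, 95% interval -1.41 to -0.82, FDR = 0.00119, limma), and the ratio of mean FPKM was 0.452. Relative to C3 in the same library, C5 FPKM went from 9.19% ± 0.647 to 3.97% ± 0.681 (SD, n = 3 per group, exact permutation p = 0.1, two-sided, the smallest possible, adjusted p = 0.133).

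CFB encodes factor B, the protease subunit of the alternative pathway C3 convertase. CFB (ENSG00000243649, chromosome 6, 31945650 to 31952084, plus strand) was seen at 0.0786, 0.0744 and 0.146 FPKM in Ctrl and at 0.147, 0.163 and 0.108 FPKM in MIR21-KO. Only 4 to 10 reads stood behind each value, the groups overlapped, and the gene entered no test at the minimum level used. Its exons share 45.0% of their bases with the readthrough gene AL645922.1, listed at 0 FPKM in both groups, so the low level may also depend on how shared reads were counted.

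CFI encodes factor I, which cuts C3b and C4b and thereby ends convertase formation. CFI (ENSG00000205403, chromosome 4, 109740694 to 109802179, minus strand) had 0.689, 0.648 and 0.736 FPKM in Ctrl, from 34, 27 and 39 reads. In MIR21-KO libraries it had 12.3, 10.0 and 11.0 FPKM, from 650, 475 and 552 reads. The lowest MIR21-KO value was far above the highest Ctrl value, and the ratio of the means was 16.1 (0.691 ± 0.0440 to 11.1 ± 1.15 FPKM, SD, n = 3). By mean FPKM, CFI moved from place 14631 to place 4121 among all listed genes. The difference on the log2(FPKM + 0.1) scale was 3.82, larger than that of any of the other 8 genes, and it was 2.84 with a pseudocount of 1. GENCODE 29 gives CFI 4875 exonic bases, of which 32.0% are shared with the gene AC126283.2, while the deposited length was 3875 bases. AC126283.2 was not among the genes listed.

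**Figure D3:**
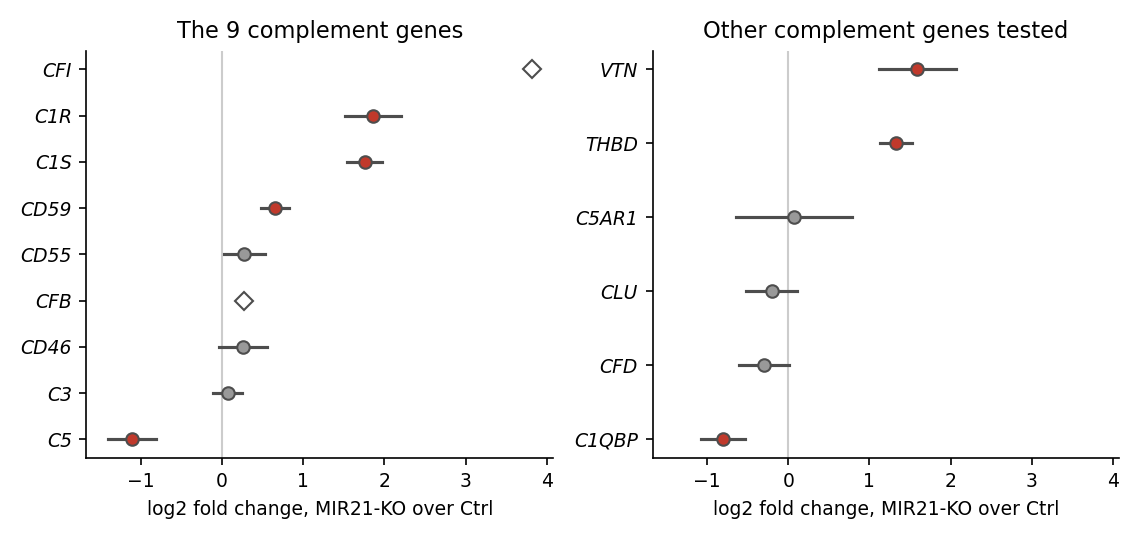
Log2 fold changes of MIR21-KO over Ctrl for the 9 complement genes (left) and for 6 other complement genes that were tested (right), with 95% intervals from limma. Red points passed an FDR of 0.01, grey points did not, and open diamonds show CFI, chosen for its rise, and CFB, below the minimum level, neither of which has a test. The rises of C1R, C1S, VTN and THBD exceed 1 on this scale, and C5 lies below -1.

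Factor I needs cofactors, among them C4b-binding protein (C4BPA) in plasma and CD46 on cells. C4BPA, below the minimum level, had 14 to 23 reads per Ctrl library and 2 to 9 reads per MIR21-KO library. No read of CR1, another cofactor, was listed in any library.

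The 3 membrane regulators differed in how far they moved. CD59 is a glycolipid-anchored protein that blocks the last step of membrane attack complex assembly. CD59 (ENSG00000085063, chromosome 11, 33703010 to 33736491, minus strand) was present at 46.4, 46.0 and 48.6 FPKM in Ctrl and at 78.6, 71.5 and 72.6 FPKM in MIR21-KO. Its groups were clearly apart, and it was called higher by 0.66 ± 0.0730 on the log2 scale (SE, FDR = 0.00117, limma, 95% interval 0.48 to 0.83), a ratio of means of 1.58. This call was narrowly lost without Ctrl replicate 1 (FDR = 0.0105, limma) and without Ctrl replicate 2 (FDR = 0.0103), with FDRs of 0.000205 to 0.0152 over all alternatives and log2 fold changes of 0.62 to 0.68.

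CD55 accelerates the decay of C3 and C5 convertases, and CD46 serves as a membrane cofactor for factor I. Their genes lie 365252 bases apart on chromosome 1, where many complement regulators cluster. CD55 (ENSG00000196352, 207321376 to 207386804, plus strand) had 6.42, 5.68 and 5.57 FPKM in Ctrl and 7.83, 7.14 and 6.49 FPKM in MIR21-KO. The groups just did not overlap, and CD55 missed the threshold with a log2 fold change of 0.28 ± 0.106 (95% interval 0.02 to 0.53, FDR = 0.0915, limma). CD46 (ENSG00000117335, 207752057 to 207795513, plus strand) was at 23.5, 20.8 and 22.1 FPKM in Ctrl and at 24.0, 24.3 and 31.8 FPKM in MIR21-KO. MIR21-KO replicate 3 stood above the other 5 libraries. CD46 was not called either (log2 fold change 0.26 ± 0.125 SE, 95% interval -0.04 to 0.55, FDR = 0.162, limma), and its log2 fold change was 0.13 without MIR21-KO replicate 3. Summed over the 3 mRNAs, membrane regulators amounted to 75.0 ± 2.28 FPKM in Ctrl and to 108.1 ± 4.46 FPKM in MIR21-KO. CD59 accounted for 62.6% ± 1.62 and 68.7% ± 2.92 of this sum. For both measures the groups did not overlap (SD, n = 3 per group, exact permutation p = 0.1, two-sided, the smallest possible, adjusted p = 0.133).

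To place these genes in the pathway, a list of 47 other complement genes was examined. Only 6 of them reached the minimum level, and 26 had at most 3 reads in each library, including 19 without any read. Among the 6, THBD and VTN were called higher and C1QBP lower, and the median log2 fold change was -0.07. Over all genes tested 7.66% were called higher and 8.38% lower, with a median of -0.02, and these counts again only describe the list. CFD, CLU and C5AR1 were not called.

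Recognition molecules and the terminal components were largely missing. C1QA, C1QB and C1QC, the subunits that carry C1r and C1s to their targets, had no read in any library, where 3 reads of C1QA would have been worth 0.172 to 0.219 FPKM. Of the 14 initiation genes listed, 10 had at most 3 reads per library, C2 among them. Likewise 5 of 6 terminal genes, namely C6, C7, C8A, C8B and C9, had at most 3 reads. SERPING1, the plasma inhibitor of C1r and C1s, had 1 read in MIR21-KO replicate 1 and none elsewhere, and 3 reads would have been worth 0.0609 to 0.0774 FPKM. Such floors cover counting error only. C4B, the substrate of C1s together with its near-identical paralog C4A, was picked out after its values were seen. It had 3, 1 and 1 reads in Ctrl and 34, 32 and 23 reads in MIR21-KO, against 1, 4 and 3 reads and 31, 11 and 17 reads for C4A, and reads may have been split between the paralogs.

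**Figure D4:**
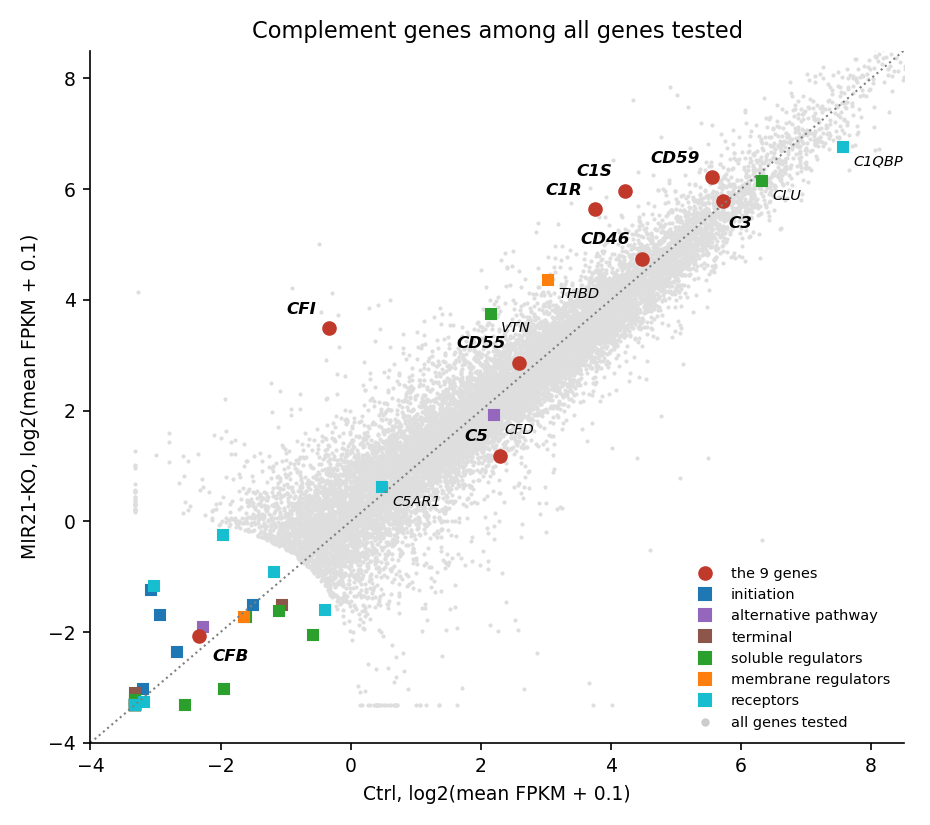
Mean level in MIR21-KO against Ctrl, as log2(mean FPKM + 0.1), for the 9 complement genes (red circles) and 47 other complement genes (squares colored by role), over all 16006 genes tested (light grey, apart from those beyond the axis limits). CFI, C1R and C1S lie above the dotted line of equal levels, C5 and C1QBP below it, and most recognition and terminal genes lie in the lower left corner.

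The 3 other complement genes that were called have further known roles. THBD encodes thrombomodulin, an endothelial thrombin receptor that also restrains complement, and it went from 7.99, 7.97 and 8.36 FPKM in Ctrl to 18.7, 21.9 and 20.9 FPKM in MIR21-KO (log2 fold change 1.33 ± 0.0831 SE, FDR = 0.000145, limma). VTN encodes vitronectin, an adhesion protein that binds the forming membrane attack complex. It rose from 4.53, 3.52 and 5.00 FPKM to 16.3, 13.6 and 10.3 FPKM, by 1.59 ± 0.199 on the log2 scale (SE, FDR = 0.00191, limma). The call of VTN was lost without Ctrl replicate 1 (FDR = 0.0108, limma) and without MIR21-KO replicate 2 (FDR = 0.0138), with 0.000291 to 0.0138 over all alternatives. C1QBP encodes a C1q-binding protein that is found mostly in mitochondria. It fell from 179.4, 202.1 and 187.3 FPKM to 123.4, 107.7 and 95.4 FPKM (log2 fold change -0.81 ± 0.114 SE, FDR = 0.003, limma). Its call was lost without Ctrl replicate 1, 2 or 3 (FDR = 0.015, 0.0178 and 0.018, limma) and without MIR21-KO replicate 2 (FDR = 0.0209), with 0.000321 to 0.0209 over all alternatives.

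Of the genes without a call, CLU, which encodes the membrane attack complex inhibitor clusterin, was the most abundant. It had 75.5, 83.1 and 82.5 FPKM in Ctrl and 82.0, 70.9 and 58.4 FPKM in MIR21-KO (log2 fold change -0.20 ± 0.131 SE, FDR = 0.28, limma). Omitting MIR21-KO replicate 1 gave a log2 fold change of -0.32, and omitting replicate 3 gave -0.07. CFD, the protease that activates factor B, had 4.63, 4.49 and 4.43 FPKM in Ctrl and 4.26, 3.61 and 3.15 FPKM in MIR21-KO (log2 fold change -0.30 ± 0.128 SE, FDR = 0.12, limma). C5AR1, a receptor for C5a, rested on 32 to 71 reads, and it was not called (log2 fold change 0.07, FDR = 0.879, limma).

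The genes whose profile over the 6 libraries was most like that of CFI, measured as the root mean square difference of centred log2(FPKM + 0.1) values, were LUADT1 (0.180), AC007563.5 (0.187) and RP11.397A15.4 (0.190). None of the 3 is a complement gene. LUADT1 and AC007563.5 had no read in Ctrl and at most 14 reads in a MIR21-KO library, and RP11.397A15.4 had 1 read in each Ctrl library and 15 to 24 reads in MIR21-KO. LUADT1 and AC007563.5 passed the minimum level through MIR21-KO alone, and their distance from CFI depends on the pseudocount. The likeness is a description of the values for which CFI was chosen, in these 6 libraries only.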

How the data were processed

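Per the labels, polyA RNA was made into strand-specific libraries and sequenced on an Illumina HiSeq instrument. The submitters' processing notes name cutadapt 1.14, HISAT2 2.1.0, SAMtools 1.5, featureCounts 1.5.3 and edgeR 3.18.1 with the build hg38. The annotation release and the strand setting of the counting are not given in the sources used here. The authors deposited one table of FPKM values per library and gene with gene lengths, together with their own log2 fold changes, p-values and FDRs, which were not used. FPKM times gene length was a whole multiple of one step per library for 100% of values (within 0.01 of a whole number), which gave the reads. The library sizes implied by the FPKM were 0.95 to 1.03 times the sums of these reads.

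Groups and replicate numbers came from the sample titles. The study describes the 3 samples of a group as independent, and the p-values measure the spread between them. The test was limma 3.58.1 (R 4.3.3, eBayes with trend and robust fitting, no covariate, two-sided) on log2(FPKM + 0.1) of the 16006 genes averaging 0.5 FPKM or more, with Benjamini-Hochberg adjustment over all of them. The fit was tested on simulated data with the same spread in both groups, so the wider spread between MIR21-KO libraries was not covered. Coordinates, exons and 3′ UTRs of at least 30 bases were from GENCODE 29 (GRCh38), which matched 99.42% of identifiers and all 9 genes. Ratios were compared by exact permutation tests (scipy 1.17.1), and figures were drawn with matplotlib 3.10.9.

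The 9 genes, the list of 47 further complement genes and the marker lists were chosen with earlier results of these data known. A further gene of the list is not reported here. The naming rule took the 9 genes, those of the 47 that were called, and the 3 genes most like CFI. The remaining names were chosen after their values were seen. Of the marker lists not named in the text, the fibroblast list summed to 5.32 to 5.83 FPKM in Ctrl and 4.83 to 7.10 FPKM in MIR21-KO, and the endothelial list to at most 0.0855 FPKM. Alternatives were voom on the recovered reads, pseudocounts of 1 and 0.01, other minimum levels, other scalings, an FDR of 0.05, limma without trend and robust fitting, protein-coding genes only, a replicate block and leaving out each library.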

Additional observations from a re-analysis of the deposited data

How the results depend on the processing

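The 4 calls among the complement genes other than CFI were C1R, C1S, C5 and CD59 under all 11 alternatives that kept the 6 libraries without a block. A fit with the replicate number as a block called 2, C1R and C1S. There C5 had a log2 fold change of -1.12 with an FDR of 0.0117 and CD59 one of 0.66 with an FDR of 0.0152 (limma). Same-numbered libraries did not deviate together (correlations -0.171, -0.0177 and -0.0174), and share only a number. Leaving out each library gave 3 to 4 calls. Of the 47 other complement genes 3 were called, 2 with the block (THBD and VTN), 5 with a minimum of 10 reads (C4B and ITGAX added, of which C4B reached that minimum only through its MIR21-KO reads) and 1 to 3 when a library was left out, where the single call was THBD without Ctrl replicate 1 or MIR21-KO replicate 2. Over all genes 2568 were called, 1226 higher and 1342 lower. With a minimum of 10 reads, 3245 of the 15795 genes tested were called (1642 higher, 1603 lower). At an FDR of 0.05 there were 5114 (2428 higher, 2686 lower), with the block 651 (379 higher, 272 lower), and with a library left out 768 to 3400 (388 to 1599 higher, 368 to 1801 lower). The causes were not tested. The difference in CFI was 3.98 with voom, 2.84 with a pseudocount of 1 and 3.98 with 0.01. With a library left out CD59 ranged from 0.62 to 0.68 and C5AR1 from -0.11 to 0.39. C5AR1 changed sign in 3 of these fits, to -0.04 (Ctrl replicate 3 omitted), -0.11 (MIR21-KO replicate 1 omitted) and -0.07 (MIR21-KO replicate 2 omitted). CFB rested on 4 to 10 reads per library, too few for the minimum level.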

Other observations

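Of the complement genes below the minimum level of the report, C4A, C4B, C4BPA, C3AR1, ITGAM and ITGAX had groups that did not overlap. They were picked out after their values were seen. The share of all genes below that level whose groups do not overlap was not counted, so this only describes the list. No test is given here, though C4B and ITGAX were called with a minimum of 10 reads, as stated above. ITGAX encodes the alpha chain of complement receptor CR4, which binds iC3b, and had 8, 12 and 22 reads in Ctrl and 85, 66 and 55 reads in MIR21-KO. ITGAM, the alpha chain of the related receptor CR3, had 34, 43 and 63 reads in Ctrl and 10, 17 and 23 reads in MIR21-KO. C3AR1, a receptor for C3a, had 1, 0 and 1 reads in Ctrl and 7, 6 and 16 reads in MIR21-KO.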
